A study of Malus domestica with 36 samples.

Results

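The late low-oxygen genes described here are 100 genes of apple peel whose RNA was highest in fruit stored in low oxygen, at the later of 2 sampling times and in libraries without the tag SL. They were taken from 57423 genes in the table, of which 16504 had a highest group mean of 10 FPKM or more (fragments per kilobase, a level corrected for gene length and library size). Each gene was scored as the lower of its mean log2(FPKM + 1) in the T2 ULO and T2 DCA_CF groups minus its highest mean in the other 10 groups. The 100 highest scores were kept after 6 genes had been set aside, namely GAD1, LOC103421823, LOC103447269, LOC103435013, LOC103400721 and XET02. Of these 6, LOC103447269, the expansin EXPA1, would have ranked 12th with a score of 1.94, and the others ranked between 2822 and 14340. The members were thus chosen by their measured levels in these libraries, and what the score used is given below as a description, with no test.

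Superficial scald is a browning of apple peel that appears after long cold storage and is linked to the oxidation of alpha-farnesene in the cells under the skin. Lowering the oxygen around the fruit delays it. In plant cells short of oxygen, respiration slows, ATP is made by fermentation, and a group of ethylene response factors, which are degraded when oxygen is plentiful, switches on a small set of anaerobic genes.

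The study sequenced peel RNA of the cultivar Granny Smith in 36 libraries, with 3 biological replicates in each of 12 groups, and the labels do not say how many fruits made up a replicate. The groups crossed 3 storage regimes, 2 times (T1 and T2) and the absence or presence of SL. ULO was storage at 1% oxygen and DCA_CF storage at under 1% oxygen, while the labels expand neither RA nor SL and give no length of storage. The 6 groups without SL are T1 RA, T1 ULO, T1 DCA_CF, T2 RA, T2 ULO and T2 DCA_CF, and each has a counterpart with SL, written here as T1 RA_SL and so on. In bulk peel, fewer cells of a type and less RNA per cell cannot be told apart.

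Summed values ran from 689868 to 790211 FPKM per library, with 33512 to 37276 genes above 0, and read totals are not known from FPKM. Genes active in apple skin were present in every group: group means ran from 1856 to 32820 FPKM for the lipid transfer protein gene MALD3, from 249 to 1339 for the alpha-farnesene synthase gene AFS1, and from 107 to 430.0 for OSC3, an oxidosqualene cyclase gene of triterpene synthesis. The value listed for the ribosomal RNA gene 18rrn ranged from 44.5 to 860 FPKM over the libraries. It lay at 134 to 137 FPKM in T2 ULO, 115 to 126 in T2 DCA_CF and 609 to 647 in T2 RA, and its part in the results was not tested.

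None of the 100 members carries a name beyond its LOC identifier in the table or in a RefSeq gene table of apple, so no role is given for any of them. By that RefSeq table, 77 are protein-coding, 1 is a long non-coding RNA (LOC108171727), 1 is a pseudogene (LOC103413642) and 1 is a transcribed pseudogene (LOC103456307). The other 20 were not matched. Among the 80 placed members, 2 pairs lay within 5 gene places of each other. Since the libraries carried no strand information, reads of overlapping genes cannot be separated, and 6 members overlap another gene in the RefSeq table. For 3 of these, LOC103455436, LOC103413642 and LOC103424465, the overlapping gene is also listed in the expression table. LOC103420241 with LOC103409567, and LOC103417664 with LOC103423897, had nearly the same profile over the 30 libraries outside the high groups (Pearson r = 0.998 and 0.990), so that shared reads within each pair cannot be told from separate transcripts.

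Scores ran from 1.22 to 2.99 on the log2 scale with a median of 1.42, where 1 corresponds to a doubling of FPKM + 1 over the next highest group. They reached 1.5 in 42 members and 2 in 10. The last 3 genes inside were LOC103429430 (1.23), LOC103428146 (1.23) and LOC103444309 (1.22), and the first 3 outside were LOC103456013, LOC103423221 and LOC103414353, all at 1.22, so the 100th place marks no break. Before any gene was set aside, 3680 genes scored above 0 and 194 scored 1 or more for this pair of groups. By the same score, 2648 genes were above 0 and 315 at 1 or more for T1 ULO with T1 DCA_CF, against 966 and 25 for T2 ULO_SL with T2 DCA_CF_SL and 397 and 14 for T1 ULO_SL with T1 DCA_CF_SL. Genes highest in both low-oxygen groups of a single time were thus counted more often without SL than with it, for T1 and for T2, as a description of these scores. A gene raised alike in low oxygen at both times scores low for either pair. These counts therefore do not give the number of genes that differed between low oxygen and RA.

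The median member stood at 19.5 FPKM in T2 ULO and 22.1 FPKM in T2 DCA_CF, and at 1.40 to 4.81 FPKM in the other 10 groups. The lowest of those medians was that of T1 DCA_CF and the highest that of T2 RA. Together the members held 0.743% ± 0.0010 (SD, n = 3) of all FPKM in T2 ULO and 0.882% ± 0.014 in T2 DCA_CF, against group means of 0.106% to 0.173% elsewhere. In 96 of the 100, the lowest of the 6 high libraries lay above the highest of the 30 others. The same held for 15.9% of the 16504 genes of 10 FPKM or more, and this separation is what the score selects for. Replicates of the high groups lay close together, with a median coefficient of variation of 4.01% in T2 ULO and 5.76% in T2 DCA_CF.

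**Figure D1:**
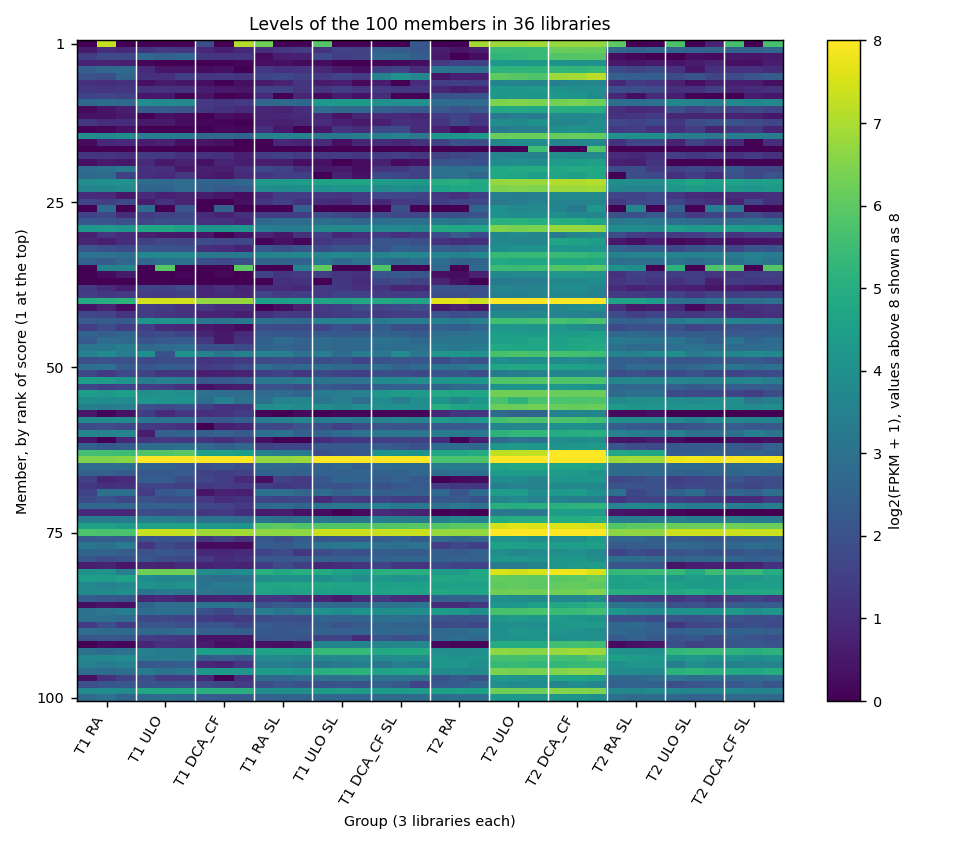
Log2(FPKM + 1) of each member (rows, by rank of score) in each of the 36 libraries (columns, 3 per group). The block of T2 ULO and T2 DCA_CF libraries is brighter than the rest in nearly every row, and broken rows belong to the 4 members listed at 0 in some libraries.

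LOC103440212 had the highest score of the members without such zeros, 2.82. Its values were 43.3, 42.2 and 42.0 FPKM in T2 ULO and 71.4, 70.1 and 67.8 FPKM in T2 DCA_CF. The other 30 libraries held between 0.340 and 5.58 FPKM, and T2 RA had the lowest group mean, with libraries at 0.583, 0.340 and 0.520 FPKM. The gene was thus low in every other group and above 40 FPKM in both low-oxygen regimes at T2 without SL.

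The long non-coding RNA LOC108171727 had the widest difference between low oxygen and RA at T2 on the log2(FPKM + 1) scale, which understates changes of low genes. It was at 63.8, 59.1 and 54.8 FPKM in T2 ULO, at 112, 119.9 and 142 FPKM in T2 DCA_CF, and at 0.367, 0.635 and 0.643 FPKM in T2 RA. On the log2(FPKM + 1) scale the difference from RA was 5.28 for ULO and 6.34 for DCA_CF, the highest of any member. Outside the high groups it was highest in T1 DCA_CF_SL, at 10.3, 15.5 and 12.01 FPKM.

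LOC103423992 was close to silent elsewhere, with 0 to 2.07 FPKM in the other 30 libraries. It stood at 18.4, 17.5 and 18.6 FPKM in T2 ULO and at 16.0, 15.9 and 16.0 FPKM in T2 DCA_CF. LOC103400887 was abundant in the high groups, at 84.0, 89.2 and 84.2 FPKM in T2 ULO and 80.1, 82.0 and 73.96 FPKM in T2 DCA_CF. Its other groups were spread over a wide range: 1.49, 1.39 and 1.55 FPKM in T1 DCA_CF but 18.1, 18.6 and 19.3 FPKM in T1 ULO_SL, the group nearest to the high libraries.

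LOC103435454 showed the most common outline among the members, in which T2 RA was the next highest group. T2 ULO libraries held 71.8, 71.9 and 73.0 FPKM, T2 DCA_CF libraries 70.01, 69.7 and 68.1, and T2 RA libraries 17.9, 17.4 and 18.6. Its lowest libraries were those of T1 DCA_CF, at 5.53, 5.40 and 4.999 FPKM. T2 RA was the next highest group in 40 members, T2 RA_SL in 15, T1 DCA_CF_SL in 13 and T1 ULO in 9, and the remaining 23 were spread over the other 6 groups.

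The remaining members among the 25 highest scores were mostly of low abundance. LOC103435313, LOC103451112, LOC103405827, LOC103452947 and LOC103424005 had group means of 24.03 to 57.4 FPKM in the high groups. LOC103425493, LOC103440459, LOC103414169, LOC103451057, LOC103435161, LOC103420753, LOC103426200, LOC103432591, LOC103426344, LOC103425598 and LOC103404263 had means of 8.98 to 21.2 FPKM there and under 4 FPKM in every other group. LOC103417664 and LOC103423897, of nearly the same profile, were higher, at means of 107 and 87.7 FPKM in T2 ULO and 135 and 115 FPKM in T2 DCA_CF.

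Of all members, 54 reached a group mean of 20 FPKM, 12 reached 100 and 3 reached 500. The 3 most abundant were also well expressed elsewhere. LOC103450693 stood at 883, 882 and 869 FPKM in T2 ULO and 948, 947 and 989 in T2 DCA_CF, against 87.2, 89.3 and 95.1 in T1 RA and 51.4, 51.4 and 53.1 in T2 RA. LOC103436316 stood at 415, 430.3 and 413 FPKM in T2 ULO and 532, 537 and 559 in T2 DCA_CF, against 52.1, 51.3 and 50.6 in T1 RA. Both genes were higher in every ULO and DCA_CF library, at either time and with or without SL, than in any of the 12 RA libraries.

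LOC103414849, the third of these, carried the largest SL difference of any member at T2 on the log2(FPKM + 1) scale. It was at 556, 554 and 537 FPKM in T2 ULO and at 879, 846 and 1035 FPKM in T2 DCA_CF. With SL the same regimes and time gave 6.64, 6.55 and 7.38 FPKM and 7.13, 6.42 and 7.11 FPKM, the lowest values of this gene in the series. On the log2(FPKM + 1) scale SL libraries were lower by a difference of 6.13 in ULO and 6.86 in DCA_CF.

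**Figure D2:**
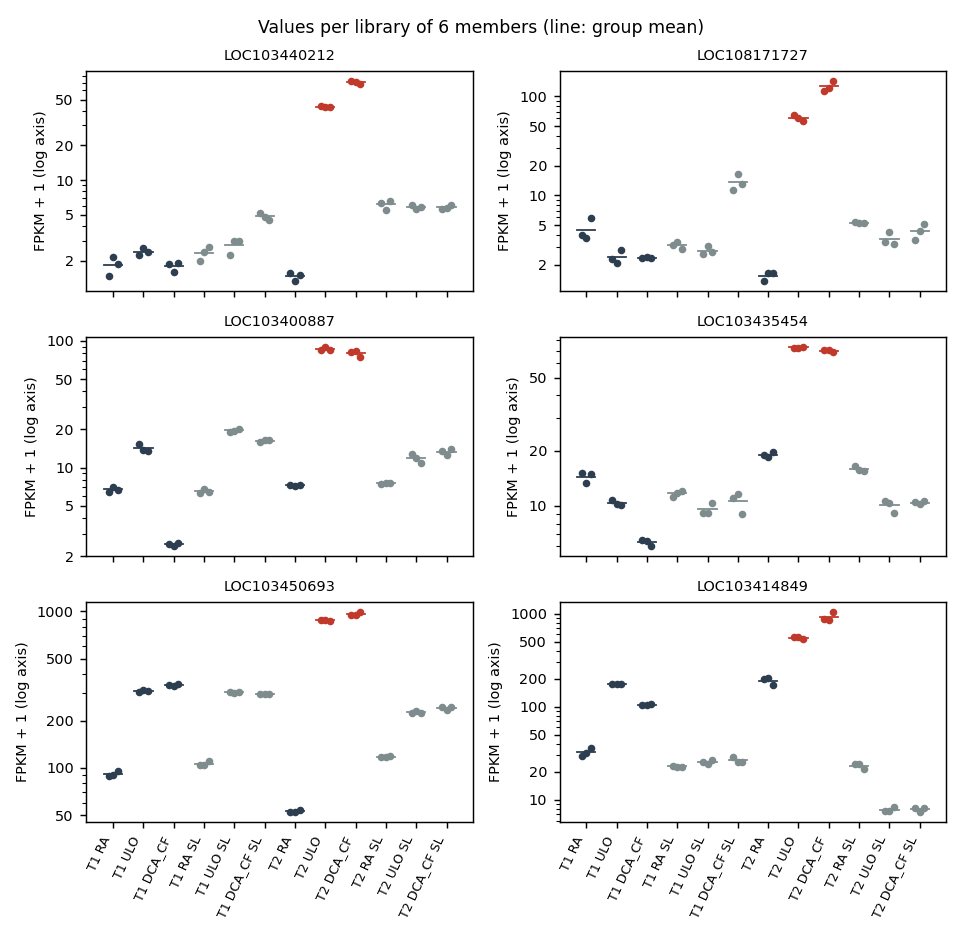
FPKM + 1 on a log axis for 6 members, 1 point per library and a line at each group mean, with T2 ULO and T2 DCA_CF in red, other groups without SL in dark blue and groups with SL in grey. The red points of LOC103440212, at 42.0 to 71.4 FPKM, lie above all 30 others, and LOC103414849 falls to 6.42 to 7.38 FPKM in the T2 ULO_SL and T2 DCA_CF_SL libraries.

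Each contrast used by the score differed more in the members than in genes of 10 FPKM or more, by construction. The median log2 difference from RA at T2 was 1.82 for ULO and 1.96 for DCA_CF, against 0.26 and 0.28 over those genes. From T1 to T2 it was 2.42 in ULO and 3.25 in DCA_CF, against 0.13 and 0.19. Between T2 libraries without and with SL it was 2.15 in ULO and 2.24 in DCA_CF, against 0.24 and 0.27. The widest of the 6 medians was thus the time difference in DCA_CF, the regime whose T1 libraries were the lowest.

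The top-ranked member and 3 others need a reservation, since their values switched between 0 and high levels within groups of replicates. LOC103450793, with the score of 2.99, was at 112, 111 and 117 FPKM in T2 ULO and 109, 107 and 106 in T2 DCA_CF. In T1 RA it was listed at 0, 152 and 0 FPKM, in T2 RA at 0, 0 and 121, and in T1 ULO at 0 in all 3 libraries. Its highest library was therefore one of T1 RA, and the score arose from averaging zeros with high values. LOC103450547 was listed at 0 in 34 libraries and at 45.5 FPKM in 1 T2 ULO and 57.2 FPKM in 1 T2 DCA_CF library, so that it is the only member left out of the tests. LOC103426872 and LOC103430824 had the same kind of zeros. Such zeros beside a replicate of 5 FPKM or more occurred in 914 (5.54%) of the genes of 10 FPKM or more. All 4 members left the list when the group median replaced the mean.

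**Figure D3:**
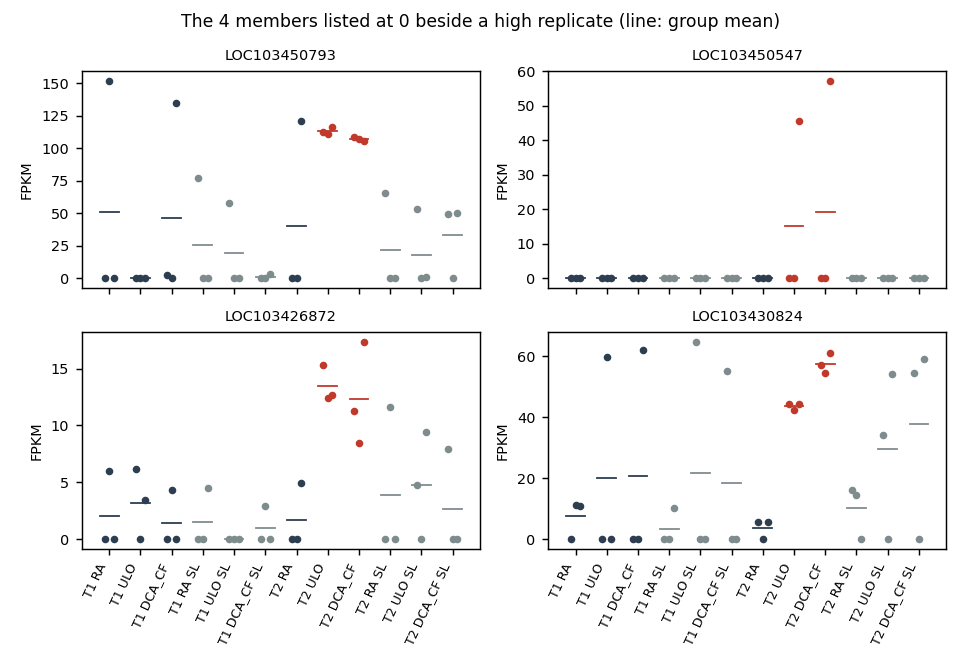
FPKM per library of the 4 members listed at 0 in some libraries and at 5 FPKM or more in replicates of the same group, with a line at each group mean and T2 ULO and T2 DCA_CF in red. LOC103450793 reached 152 FPKM in 1 T1 RA library and was 0 in the other 2, and LOC103450547 was above 0 in 2 libraries of 36.

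Comparisons among the other 10 groups were tested with limma on log2(FPKM + 1), with Benjamini-Hochberg adjustment over 32923 genes and a false discovery rate (FDR) of 0.05. The score takes the highest of these 10 means as an upper limit, so the choice of members also limits their levels there. A gene already high in any of these groups scored low, whereas the genes used for comparison were not chosen in this way. The counts below therefore describe the chosen members. In each of these groups 12 to 28 of the 100 members reached 10 FPKM, against 89 in T2 ULO and 100 in T2 DCA_CF. Of the 100 members, 99 passed the filter of 1 FPKM in 3 libraries. Each count is set beside the percentage of all tested genes called in the same direction and that of the 16493 tested genes of 10 FPKM or more. Outside the high groups the members lay lower than the latter, with group medians of 1.40 to 4.81 FPKM against 13.0 to 14.9 FPKM.

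At T1 without SL most members were lower in DCA_CF than in RA. Against T1 RA, 63 of 99 members were lower in T1 DCA_CF and 18 were higher, while 36.1% of all tested genes were lower and 31.8% higher (41.8% and 38.3% of genes of 10 FPKM or more). The median log2 difference was -0.69, against -0.03 over all tested genes. The 3 members with the largest falls were LOC103405751, LOC103435733 and LOC103451112.

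LOC103405751 was at 7.65, 6.78 and 8.54 FPKM in T1 RA and at 0.175, 0.188 and 0.145 FPKM in T1 DCA_CF, a log2 difference of -2.88 ± 0.10 (SE; limma adjusted p = 5.42e-20). The groups did not overlap, and T1 ULO lay between them at 1.41, 2.39 and 1.98 FPKM. LOC103435733 was at 10.5, 8.77 and 10.5 FPKM in T1 RA and at 0.871, 0.714 and 1.29 FPKM in T1 DCA_CF, a log2 difference of -2.49 ± 0.12 (limma adjusted p = 8.07e-17). It too was intermediate in T1 ULO, at 3.62, 3.94 and 4.28 FPKM. LOC103451112 fell from a mean of 5.37 ± 0.86 to 0.169 ± 0.15 FPKM (SD, n = 3; log2 difference -2.45, limma adjusted p = 2.14e-13).

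The largest rises in T1 DCA_CF were those of LOC103403597, LOC103450693 and LOC103414849. LOC103403597 was at 0.232, 0.372 and 0.278 FPKM in T1 RA and at 7.27, 7.48 and 6.57 FPKM in T1 DCA_CF (log2 difference 2.65 ± 0.09, limma adjusted p = 1.90e-20). LOC103450693 rose from the T1 RA values above to 336, 335 and 344 FPKM (log2 difference 1.89 ± 0.03, limma adjusted p = 6.44e-29). LOC103414849 rose from 28.8, 30.7 and 34.7 FPKM to 103, 102 and 106 FPKM (log2 difference 1.70 ± 0.07, limma adjusted p = 8.87e-18).

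In T1 ULO against the same T1 RA libraries, 31 members were higher and 39 lower, with 32.0% and 30.4% of all tested genes called higher and lower (39.1% and 36.0% of genes of 10 FPKM or more). These shares are near the background, and the median log2 difference was -0.17. The largest rises were in LOC103414849, which reached 173, 172 and 175 FPKM (log2 difference 2.43), LOC103403597 (2.41) and LOC108172624 (2.37). The largest falls were in LOC103452947 (-2.08), LOC103451112 (-2.04) and LOC108174042 (-1.71), the last of which varied between the T1 ULO replicates with a mean of 3.34 ± 2.41 FPKM.

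Both T1 comparisons share the T1 RA libraries, so their calls are given side by side and not as separate support. Of the 99 members, 39 were lower in both regimes, 18 were higher in both, 18 were lower in DCA_CF alone, 7 were higher in ULO alone, 6 were higher in ULO and lower in DCA_CF, and 11 were called in neither. In the same order, these classes held 27.3%, 25.8%, 7.69%, 5.14%, 1.06% and 24.6% of all tested genes (32.7%, 32.7%, 7.41%, 4.61%, 1.73% and 13.0% of genes of 10 FPKM or more). T1 DCA_CF was the lowest of the 12 group means in 56 of the 100 members and in 22.1% of genes of 10 FPKM or more. By the choice of members, T2 ULO and T2 DCA_CF were the lowest in none of them, but in 4.37% and 3.63% of those genes. T1 means fell in the order RA, ULO, DCA_CF in 52 members and in 30.4% of those genes.

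The members lower in both regimes at T1 and those higher in both took separate courses to their late levels. In the 39 that were lower, the median group mean was 5.43 FPKM in T1 RA, 2.89 in T1 ULO and 1.12 in T1 DCA_CF, and then 7.12 in T2 RA, 25.8 in T2 ULO and 24.6 in T2 DCA_CF. In the 18 that were higher, it was 1.67 FPKM in T1 RA, 4.79 in T1 ULO and 5.03 in T1 DCA_CF, and then 3.01 in T2 RA, 27.9 in T2 ULO and 34.8 in T2 DCA_CF. These groups were formed from their T1 values, and the score selects for high levels in T2 ULO and T2 DCA_CF, so both sets of levels are a description.

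**Figure D4:**
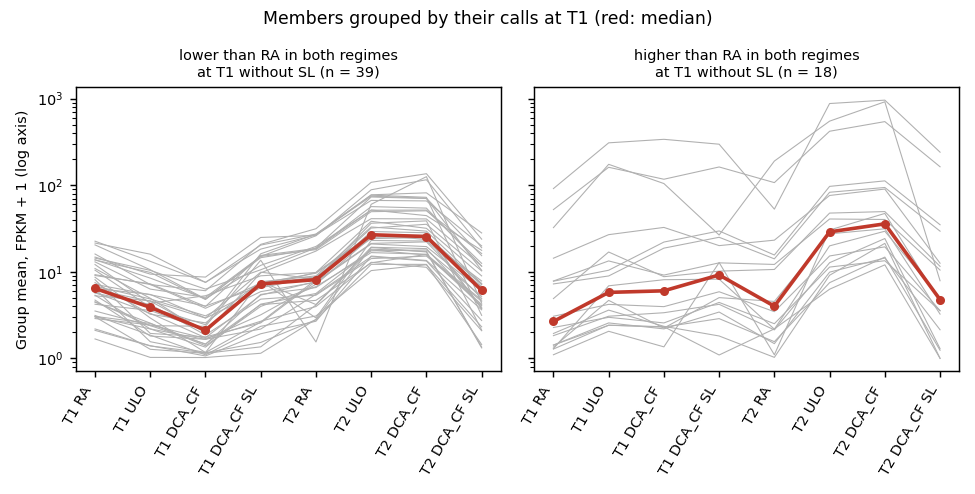
Group means as FPKM + 1 on a log axis for members called lower (left, n = 39) or higher (right, n = 18) than RA in both regimes at T1 without SL, with 1 grey line per member and the median in red. On the left the median dips to 1.12 FPKM in T1 DCA_CF and reaches 25.8 and 24.6 FPKM in T2 ULO and T2 DCA_CF, whereas on the right it already lies at 4.79 and 5.03 FPKM in the T1 low-oxygen groups.

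Most members were higher in T1 DCA_CF with SL than without. In T1 DCA_CF_SL against T1 DCA_CF, 80 of 99 members were higher and 8 lower, while 37.0% of all tested genes were higher and 29.8% lower (44.6% and 35.0% of genes of 10 FPKM or more). The median log2 difference was 0.87, against 0.07 over all tested genes. This comparison uses the same 3 T1 DCA_CF libraries as the one with RA, so a low level there enters both.

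LOC103456307, the transcribed pseudogene, rose the most, from 0.512, 0.253 and 0.310 FPKM in T1 DCA_CF to 11.7, 11.7 and 12.02 FPKM with SL (log2 difference 3.24 ± 0.08, limma adjusted p = 1.88e-23). It was under 0.4 FPKM in all 12 RA libraries. LOC103405751 rose to 6.74, 6.51 and 7.25 FPKM with SL (log2 difference 2.74 ± 0.10, limma adjusted p = 2.09e-19), close to its T1 RA values. LOC103434199 rose from 1.85, 1.21 and 1.29 FPKM to 15.4, 15.8 and 14.3 FPKM (log2 difference 2.73 ± 0.09, limma adjusted p = 4.20e-20).

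The few members lower with SL in T1 DCA_CF were led by LOC103414849, which went from 103, 102 and 106 FPKM to 27.6, 24.7 and 24.5 FPKM (log2 difference -1.98 ± 0.07, limma adjusted p = 3.13e-19). LOC103421636 fell from a mean of 1.32 to 0.0944 FPKM and LOC103428146 from 31.6 to 19.1 FPKM, with log2 differences of -1.08 and -0.70.

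In ULO at T1 the SL comparison was more even. There 37 members were higher with SL and 21 lower, while 27.3% of all tested genes were higher and 37.9% lower (34.6% and 43.5% of genes of 10 FPKM or more). LOC103456307 was again the member with the largest rise, from 0.831, 1.20 and 1.14 FPKM to 11.2, 11.2 and 11.1 FPKM (log2 difference 2.57 ± 0.08, limma adjusted p = 3.61e-21). LOC103420241 and LOC103409567, likewise alike in profile, rose by 1.98 and 1.95 on the log2 scale. LOC103446880 fell from 56.2, 55.5 and 60.6 FPKM to 2.86, 3.44 and 3.67 FPKM (log2 difference -3.76 ± 0.05, limma adjusted p = 1.78e-28), ahead of LOC103414849 (-2.78) and LOC103445990 (-1.68).

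The SL response at T1 differed between the regimes when the difference was itself tested, in contrasts added after the data were seen. The response in DCA_CF exceeded that in ULO in 69 members and fell short of it in 4, against 30.4% and 11.1% of all tested genes (39.7% and 16.3% of genes of 10 FPKM or more). The difference between DCA_CF and RA at T1 was higher with SL than without in 75 members and lower in 9, against 35.1% and 23.9% of all tested genes (40.5% and 31.8%). For ULO against RA at T1 the counts were 40 higher and 17 lower, against 24.4% and 26.8% of all tested genes (29.2% and 35.4%).

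In RA without SL the members tended to rise with time. From T1 to T2, 55 of 99 were higher and 10 lower, while 25.2% of all tested genes were higher and 23.4% lower (34.9% and 28.7% of genes of 10 FPKM or more). The median log2 difference was 0.40, against 0.00 over all tested genes. LOC103414849 rose the most, from 28.8, 30.7 and 34.7 FPKM to 197, 202 and 170.0 FPKM (log2 difference 2.56 ± 0.07, limma adjusted p = 4.84e-21), followed by LOC103405827 (1.76) and LOC103426344 (1.56).

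The 3 largest falls with time in RA were in LOC103405751, LOC108171727 and LOC103435313. LOC103405751 fell from 7.65, 6.78 and 8.54 FPKM to 1.72, 2.24 and 1.84 FPKM (log2 difference -1.56 ± 0.10, limma adjusted p = 2.30e-13). LOC108171727 and LOC103435313 fell by 1.51 and 1.38 on the log2 scale, to means of 0.548 and 0.232 FPKM. The change with time in RA was higher with SL than without in 17 members and lower in 29, against 23.5% and 20.6% of all tested genes (28.6% and 28.5% of genes of 10 FPKM or more).

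The high groups themselves define the score, which uses the lower of the pair, so their comparison with each other is given as a description and nothing is read from its calls. Of 99 members, 27 were called higher in T2 DCA_CF than in T2 ULO and 1 lower, while 15.1% of all tested genes were higher and 7.84% lower (19.8% and 12.9% of genes of 10 FPKM or more). The median log2 difference was 0.04. With libraries rescaled by RLE size factors the split was 20 higher and 4 lower, and the median -0.0065.

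LOC103445990 stood at 21.0, 20.1 and 19.8 FPKM in T2 DCA_CF and at 8.03, 8.37 and 7.98 FPKM in T2 ULO, a log2 difference of 1.22. It was listed at 0 in all 3 libraries of T2 DCA_CF_SL. LOC108171727 followed with 1.06 and LOC103415334 with 0.98, the latter no longer called with a pseudocount of 0.1. The single lower call, LOC103440459 at 14.9 ± 1.01 against 18.2 ± 0.53 FPKM (SD, n = 3), was lost on leaving out T2 DCA_CF replicate b or c or any of the T2 ULO replicates.

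Whether members also differed from RA in low oxygen at T2 with SL was tested in groups that enter the score only as an upper limit. In T2 ULO_SL against T2 RA_SL, 17 members were higher and 34 lower, beside 17.6% and 27.2% of all tested genes (23.6% and 34.5% of genes of 10 FPKM or more). In T2 DCA_CF_SL against the same RA libraries, 17 were higher and 36 lower, beside 19.3% and 27.6% (25% and 35.9%). All these shares are near the background. Side by side, 15 members were higher in both regimes, 29 were lower in both and 39 were called in neither, beside 15.4%, 24.4% and 48.3% of all tested genes (21.3%, 31.9% and 34.3% of genes of 10 FPKM or more).

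LOC103456307 was the member that rose most in both, from 0.189, 0.309 and 0.392 FPKM in T2 RA_SL to 2.75, 1.98 and 2.35 FPKM in T2 ULO_SL and 3.39, 3.72 and 3.43 FPKM in T2 DCA_CF_SL (log2 differences 1.37 ± 0.08 and 1.80 ± 0.08, limma adjusted p = 1.14e-14 and 2.15e-17). LOC103420241 rose in both (1.31 and 1.08). LOC103409567 (1.28 in ULO) and LOC103450693 (1.03 in DCA_CF) were likewise called higher in both regimes. LOC103446880 fell the most, from 26.01, 25.4 and 25.3 FPKM to 4.05, 4.24 and 4.46 FPKM in T2 ULO_SL and 4.12, 4.46 and 4.15 FPKM in T2 DCA_CF_SL (log2 difference -2.34 ± 0.05 in both). LOC103414849 fell by 1.57 and 1.56. LOC103437919 (by 1.5 in ULO) and LOC103450457 (by 1.24 in DCA_CF) were likewise called lower in both regimes.

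In the remaining comparisons the members' shares lay near or below those of genes of 10 FPKM or more. In T2 RA_SL against T2 RA, 23 members were higher and 39 lower, beside 27.3% and 31.6% of all tested genes (35.6% and 37.4% of genes of 10 FPKM or more). LOC103440212 (2.06), LOC103403597 (1.90) and LOC108171727 (1.78) rose the most there, and LOC103414849 (-3.03), LOC103450457 (-1.89) and LOC103424005 (-1.61) fell the most. From T1 to T2 in ULO with SL, 22 members were higher and 20 lower, beside 14.7% and 15% (22.3% and 19.6%), and in DCA_CF with SL 13 were higher and 30 lower, beside 12% and 28.7% (17.9% and 35.4%).

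Individual members nevertheless moved with time under SL. LOC103450457 fell from 17.9, 20.4 and 19.7 FPKM in T1 DCA_CF_SL to 2.08, 1.81 and 2.53 FPKM in T2 DCA_CF_SL (log2 difference -2.70 ± 0.07, limma adjusted p = 2.49e-22), with LOC103435313 (-2.04) and LOC103414849 (-1.75) next. In ULO with SL the largest falls were those of LOC103456307 (-1.86), LOC103414849 (-1.70) and LOC103450457 (-1.60), and the largest rises those of LOC103452947 (1.17), LOC103440212 (1.12) and LOC103435161 (0.94). In DCA_CF with SL the largest rises were smaller, in LOC103435161 (0.92), LOC103439461 (0.70) and LOC103452947 (0.53). The last of these lost its call without T1 DCA_CF_SL replicate a (limma adjusted p = 0.0671) or T2 DCA_CF_SL replicate a (0.130), and in a fit of the 6 compared libraries (0.0519).

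**Figure D5:**
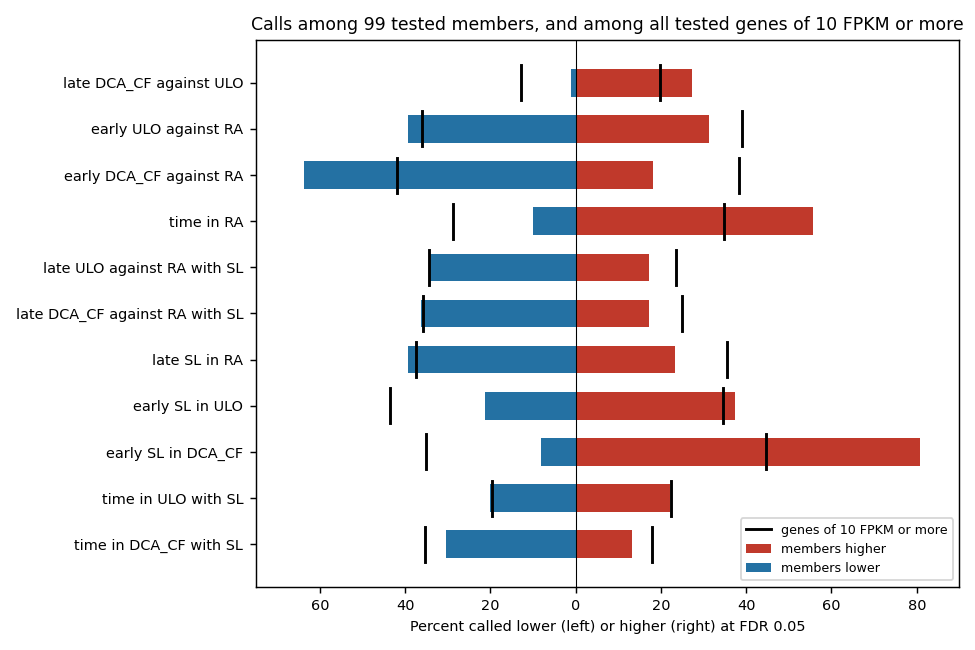
Percentage of the 99 tested members called higher (red, right) or lower (blue, left) at an FDR of 0.05 in each of 11 comparisons, with black lines for the percentage among tested genes of 10 FPKM or more. Early stands for T1 and late for T2, without SL unless SL is named. The first bar compares the groups that define the score and is a description. The bar for SL in DCA_CF at T1 reaches 80 members against a line at 44.6%, whereas those for T2 ULO and T2 DCA_CF against RA with SL lie near or below their lines.

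Named genes near the members were looked at after the ranks were known. The nearest was HRGP, a gene named for a hydroxyproline-rich glycoprotein of the kind found in cell walls, at rank 312 with a score of 0.85. Of the 8 named genes within the first 500 ranks, 6 were genes of TCP transcription factors, out of 7 so named among the 419 named genes of 10 FPKM or more, plant regulators of cell proliferation and organ growth. The other gene so named, TCP7, ranked 6241 with a score of -0.36, and the homeodomain gene HD14 ranked 373. The limit of 500 was set after the ranks were seen, and no TCP gene is a member. TCP9 (rank 324) had means of 60.2 ± 1.62 FPKM in T2 ULO and 60.8 ± 1.09 in T2 DCA_CF, against at most 33.2 ± 1.05 in the other groups, the highest being T2 RA. The only named gene of the low-oxygen and fermentation list, the haemoglobin gene GLB1, scored -4.68 and is far from the members.

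Named genes of 14 other lists were counted in the T1 comparison of DCA_CF with RA, where 31.8% of all tested genes were higher and 36.1% lower. More genes fell than rose among 8 tested heat shock and chaperone genes (1 higher, 5 lower), 14 cuticle, wax and lipid genes (3 and 7), 6 sugar and starch genes (1 and 4), 6 pathogenesis and defence genes (1 and 4) and 4 cell wall genes (1 and 2). More rose than fell among 15 auxin and gibberellin genes (10 higher, 3 lower), 16 ethylene genes (7 and 1), 26 kinase and signalling genes (16 and 8), 169 transcription factor genes (86 and 50) and 8 cytochrome P450 and glycosyltransferase genes (4 and 3). Equal numbers rose and fell among 3 genes of amino acid metabolism (1 and 1), 7 of terpenes and sterols (3 and 3), 7 of phenylpropanoids and flavonoids (3 and 3) and 14 of abscisic acid and dehydration (6 and 6). These lists hold no member, and nothing is drawn from them about the functions of the members.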

How the data were processed

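Peel RNA was made into non-directional libraries and read on an Illumina sequencer, per the labels. Tools listed in the submitters' processing notes are HISAT2, StringTie and DESeq2. Their versions and the genome build are not given in the sources used here, so no coordinates are printed. The deposited values are FPKM per gene and library, although the sheet is named for counts, and TPM with genes left out cannot be told apart from them. Columns headed DCA were matched to the DCA_CF samples by time, SL and letter. Read depth is unknown, so no counting interval is given. RefSeq names and gene order came from the assembly GDT2T_hap1.

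Genes reaching 1 FPKM in 3 or more libraries (32923) were transformed to log2(FPKM + 1), which understates changes of low genes. A model with 1 mean per group was fitted to 36 libraries with limma 3.58.1 in R 4.3.3 (eBayes, trend), and 11 contrasts were tested, 10 of them among groups outside the high pair and 1, given as a description, between the high groups, with Benjamini-Hochberg adjustment over all genes and an FDR of 0.05. A further 4 contrasts test differences of responses. The members and lists were chosen with earlier results of these data known. Genes named are the 25 of highest score, up to 3 per direction with the largest non-overlapping change in each comparison, and 3 on each side of the 100th score. Others named, such as the most abundant members, were chosen after their values were seen. The procedure was run on simulated data with normally distributed noise and few changed genes. These data have many changed genes and some zeros beside high replicates, so that run does not give the error rate here.

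Replicate letters were not treated as pairs: residuals correlated at a mean of 0.0029 within a letter and -0.0015 between letters. Of the 36 libraries, 17 were closest to their own letter, so these values do not settle whether letters pair libraries. Identical values between replicates made up at most 0.0028% of genes, and no library was treated as a duplicate. The labels call the replicates biological but name no separate fruit lots. The p-values therefore rest on the spread between these replicates, estimated for each gene over all 12 groups together. Alternatives were RLE and upper quartile scaling, a pseudocount of 0.1, other filters, the letter as a block, fits of 6 libraries and leaving out each library.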

Additional observations from a re-analysis of the deposited data

Results flagged for a closer look

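The results here were picked out because the effect of one factor differed between groups by a test of the difference itself, with limma on log2(FPKM + 1) and Benjamini-Hochberg adjustment over all tested genes, in contrasts added after the data were seen. The SL response at T1 was higher in DCA_CF than in ULO in 69 of 99 members and lower in 4. Over all tested genes the shares were 30.4% and 11.1% (39.7% and 16.3% of genes of 10 FPKM or more). Among the called members LOC103446880 showed the widest difference, 3.34 ± 0.08 on the log2 scale (limma adjusted p = 3.93e-23). Its values with SL were 16.1, 16.8 and 16.7 FPKM in DCA_CF and 2.86, 3.44 and 3.67 FPKM in ULO, against 22.7, 23.3 and 21.5 FPKM and 56.2, 55.5 and 60.6 FPKM without SL.

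The ULO response at T1, relative to RA, was higher with SL than without in 40 members and lower in 17. Over all tested genes the shares were 24.4% and 26.8% (29.2% and 35.4% of genes of 10 FPKM or more). Among the called members LOC108172624 differed the most, by -2.73 ± 0.22 (limma adjusted p = 3.31e-11). Without SL it was at 74.1, 73.6 and 75.1 FPKM in ULO and 16.2, 16.0 and 9.60 FPKM in RA, and with SL at 29.0, 22.7 and 20.5 FPKM and 33.1, 28.0 and 31.6 FPKM. The DCA_CF response at T1 was higher with SL in 75 members and lower in 9. Over all tested genes the shares were 35.1% and 23.9% (40.5% and 31.8% of genes of 10 FPKM or more). LOC103405751 differed by 3.49 ± 0.14 (limma adjusted p = 4.10e-18). This comparison of DCA_CF responses shares the T1 DCA_CF libraries with the first.

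The change from T1 to T2 in RA was higher with SL in 17 members and lower in 29, beside 28.6% and 28.5% of genes of 10 FPKM or more, so the lower share is near the background. LOC103414849 differed the most, by -2.53 ± 0.10 (limma adjusted p = 2.19e-17), as it stayed at 20.3 to 23.4 FPKM in RA with SL at both times and rose with time without SL.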

How the results depend on the processing

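Members were chosen on averages of 3 libraries, and depth is unknown. Of the 100, 90 stayed with a pseudocount of 0.1, 90 with the median, 93 with RLE scaling, 78 when genes of 1 FPKM or more were admitted, and 95 to 100 when a library was left out; 69 stayed under all 40 settings. The median score of the list was 1.56 with a pseudocount of 0.1 and 1.20 with RLE scaling, against 1.42 (1.41 to 1.43 with a library left out); these settings were added after the data were seen. The count of members lower in T2 DCA_CF than in T2 ULO, 1, became 4 with RLE scaling, 0 with a pseudocount of 0.1, 5 in a fit of the 6 compared libraries, and 0 to 1 with a library left out. Members higher at T2 in ULO with SL went from 22 to 13 in the fit of 6 libraries. For LOC103440459 and LOC103415334 the pseudocount of 0.1 also ended the call (limma adjusted p = 0.230 and 0.300). The other counts of members stayed within 1.5 times under each setting run, and no single named gene reversed. The members' median log2 difference did change sign with RLE scaling in T2 DCA_CF against T2 ULO (0.04 to -0.0065) and from T1 to T2 in DCA_CF with SL (-0.06 to 0.02). With the replicate letter as a block, 28 members were higher in T2 DCA_CF than in T2 ULO in place of 27, and no count moved by over 1.5 times. Of the 4 members listed at 0 beside a high replicate, none was called in T1 DCA_CF against T1 RA, and LOC103450547 was not tested. Leaving them out, a setting also added later, could thus not change the counts of 63 and 18.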
